A study of Mus musculus with 12 samples.

Results

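Immediate-early genes are transcribed within minutes of a signal and without new protein synthesis, and ERK feedback genes are those that the ERK MAP kinase switches on and whose products then restrain the same cascade. The set described here lists 36 genes that are of these kinds or linked to them. Nras and Ccnd1 are among the linked genes. The transcription factor genes Etv4 and Etv5, which ERK induces, are counted here with the feedback genes. A gene was included where the annotation of a probe set gave its symbol and no other, and the probe set with the highest mean over the 12 arrays stood for it. By that rule 35 of the 36 genes were found, among 18820 genes in all, and Fosl1 had no probe set of its own. Of the 35, 27 were bright enough to be tested, among 12961 genes tested.

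The cells were primary B lymphoma cells of C57BL/6J x BALB/c mice with the alleles l-MYC and B1-8f, a MYC transgene and a heavy chain gene that Cre deletes. The 4 groups were BCR-negative cells treated with CHIR99021, an inhibitor of the kinase GSK3; BCR-independent cells; untreated BCR-negative cells; and untreated BCR-positive cells. BCR stands for the B cell receptor, which TAT-Cre, a cell-permeable Cre, had removed from all but the last group; cells were cultured as mixtures with BCR-positive cells for 4 days and sorted by FACS. Tumours 2567, 2646 and 2676 each gave 1 array per group, so 12 arrays were compared with the tumour as a block. BCR-independent cells were 1 clone per tumour, grown out of BCR-negative tumour cells in long culture. The titles of the BCR-negative and BCR-positive arrays of tumours 2646 and 2676 carry an unexplained mark, (2), that the titles of the other 8 arrays lack. Whether arrays of 1 tumour came from separate cultures is not stated, so p-values reflect spread between arrays that may be technical.

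In B cells, antigen binding to the receptor activates RAS through RASGRP exchange factors, and RAS drives the kinases RAF, MEK and ERK. ERK then induces transcription factors of the EGR, FOS and ETV families, and with them the inhibitors that limit it: dual-specificity phosphatases (DUSP), which remove phosphate from MAP kinases, and Sprouty and SPRED proteins, which act on RAS and RAF. GSK3 is a kinase that phosphorylates, and so marks for degradation, proteins such as MYC, JUN and beta-catenin.

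Values are log2 signals. The array medians lay between 3.32 and 3.44, and a probe set within 0.5 log2 units of them or below was taken to have no clear signal. Of the 27 genes tested, 19 had a mean further above the median. Egr2, Spry1 and Phlda1 had means near it, and Egr3, Klf4, Ccl4, Etv4 and Il17rd stayed near or below it on every array. The 8 genes not tested were Ier3, Nr4a3, Dusp4, Cd69, Cd83, Ccl3, Spry2 and Spry4. In bulk samples such as these, fewer cells expressing a gene and less of its RNA per cell cannot be told apart.

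Promoter sequences are shown for 5 genes: Btg2, the member whose level passed the test between groups, and Dusp6, Etv5, Spred1 and Spred2, the feedback genes that stood apart in tumour 2646 (for Egr1, which did so too, none is shown). Each window runs from 250 bases before to 50 bases after the transcription start in RefSeq (build GRCm38.p6), 5′ to 3′ on the strand of the gene. Capitals mark matches to the motifs described after the sequences. The windows lie at chr1:134079106-134079405 on the minus strand for Btg2, chr10:99262981-99263280 on the plus strand for Dusp6, chr16:22439521-22439820 on the minus strand for Etv5 (1 of its windows), chr2:117120821-117121120 on the plus strand for Spred1, and chr11:19924192-19924491 on the plus strand for Spred2.
Btg2: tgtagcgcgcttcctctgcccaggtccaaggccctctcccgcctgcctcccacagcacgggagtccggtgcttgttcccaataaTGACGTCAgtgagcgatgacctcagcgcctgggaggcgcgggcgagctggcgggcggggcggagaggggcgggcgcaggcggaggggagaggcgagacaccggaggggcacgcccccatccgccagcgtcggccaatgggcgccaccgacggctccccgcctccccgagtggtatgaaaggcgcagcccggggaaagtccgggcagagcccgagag
Dusp6: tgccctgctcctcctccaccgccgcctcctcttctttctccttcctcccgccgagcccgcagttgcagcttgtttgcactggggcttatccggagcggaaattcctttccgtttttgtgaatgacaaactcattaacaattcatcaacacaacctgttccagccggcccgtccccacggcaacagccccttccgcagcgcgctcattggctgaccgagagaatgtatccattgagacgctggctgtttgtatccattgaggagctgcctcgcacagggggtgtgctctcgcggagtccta
Etv5: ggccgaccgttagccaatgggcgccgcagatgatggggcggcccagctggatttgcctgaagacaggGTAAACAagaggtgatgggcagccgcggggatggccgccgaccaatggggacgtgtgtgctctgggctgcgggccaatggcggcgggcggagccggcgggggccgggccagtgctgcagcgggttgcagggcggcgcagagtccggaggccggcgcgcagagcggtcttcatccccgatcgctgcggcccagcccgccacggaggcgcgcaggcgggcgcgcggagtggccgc
Spred1: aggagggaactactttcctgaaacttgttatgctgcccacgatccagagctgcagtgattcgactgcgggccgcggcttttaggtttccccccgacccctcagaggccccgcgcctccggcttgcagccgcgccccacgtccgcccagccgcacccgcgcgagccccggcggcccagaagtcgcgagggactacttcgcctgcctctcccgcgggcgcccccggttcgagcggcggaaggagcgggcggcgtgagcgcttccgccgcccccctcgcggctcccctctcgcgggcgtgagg
Spred2: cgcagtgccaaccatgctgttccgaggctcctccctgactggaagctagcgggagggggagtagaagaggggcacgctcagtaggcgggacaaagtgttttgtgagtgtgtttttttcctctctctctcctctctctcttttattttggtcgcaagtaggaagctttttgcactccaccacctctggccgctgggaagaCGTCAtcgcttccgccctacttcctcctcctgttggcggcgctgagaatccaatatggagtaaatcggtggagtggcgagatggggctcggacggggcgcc

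Motifs were searched on both strands in 32851 RefSeq windows of this length, 29 of them belonging to 24 members. The cyclic AMP response element TGACGTCA stood in 1.79% of all windows and in 2 member windows, those of Btg2 (positions -166 to -159 from the start) and Dusp1. Its shorter form TGACG, which the full element contains, stood in 20.8% of all windows and in 15 member windows, among them that of Spred2 (positions -51 to -47, in reverse complement). The FOXO motif GTAAACA stood in 3.65% of all windows and in those of Etv5 (positions -183 to -177), Junb and Nras. The ETS motif CCGGAA stood in 14.9% of windows and in 3 of members, the E-box CACGTG in 7.15% and in 5, and the CArG box, the site of serum response factor, in 1.63% and in 5, all of Dusp5 and Egr2. The AP-1 motif TGANTCA stood in 7.81% of all windows and in 0 member windows. The windows of Dusp6 and Spred1 held none of these letters. A match describes the sequence only.

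Btg2 passed the test in 2 of the 6 comparisons, both of cells treated with CHIR99021: against untreated BCR-negative cells and against BCR-independent clones. The treatment itself is read from the first. Btg2, an antiproliferative regulator of mRNA deadenylation that p53 and other signals induce, fell in treated cells. Its level was 6.17, 6.88 and 6.33 in treated cells of tumours 2567, 2646 and 2676, against 7.11, 7.88 and 7.63 in untreated BCR-negative cells. All treated values were below all untreated ones. Of all genes, 4.68% had groups apart in this way. The Btg2 means were 6.46 ± 0.37 in treated and 7.54 ± 0.39 in untreated cells (SD, n = 3 each), and the change was -1.08 log2 units (SE 0.14, 95% interval -1.40 to -0.76), a fold of 0.472. It was lower in 3 of 3 tumours, by differences of -0.95, -1.0 and -1.30, and limma's Benjamini-Hochberg adjusted p was 0.0194.

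The call on Btg2 depends on the tumour block and on all 3 tumours. Without the block the adjusted p was 0.173, and without tumours 2567, 2646 and 2676 it was 0.057, 0.246 and 0.143. Adding the mark of the titles to the fit gave a change of -0.92 and an adjusted p of 0.114. Tumour 2567, whose treated and untreated arrays both lack the mark, had a difference of -0.95.

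Btg2 was thus 1 of 27 members called in this comparison, beside 1.91% of all genes called in either direction and 0.849% called lower. Unadjusted p-values under 0.05 were held by 2 members, against 16.6% of all genes. The members divided into 13 with a higher and 14 with a lower fitted level, and their median change was -0.0121, against 0.0256 over all genes. The next members by p were not called. Dusp2, a nuclear phosphatase of activated lymphocytes, averaged 5.80 ± 0.24 in treated and 6.28 ± 0.56 in untreated cells, a difference of -0.49 (SE 0.21, adjusted p = 0.275). Nr4a2, an orphan nuclear receptor induced by many stimuli, averaged 4.69 ± 0.36 and 5.27 ± 0.61 in the same order, a difference of -0.57 (SE 0.28, adjusted p = 0.35). Junb, an AP-1 subunit, differed by -0.17 (SE 0.10, adjusted p = 0.444). With the mark in the fit the difference was -0.23 for Dusp2 and -0.10 for Nr4a2.

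**Figure D1:**
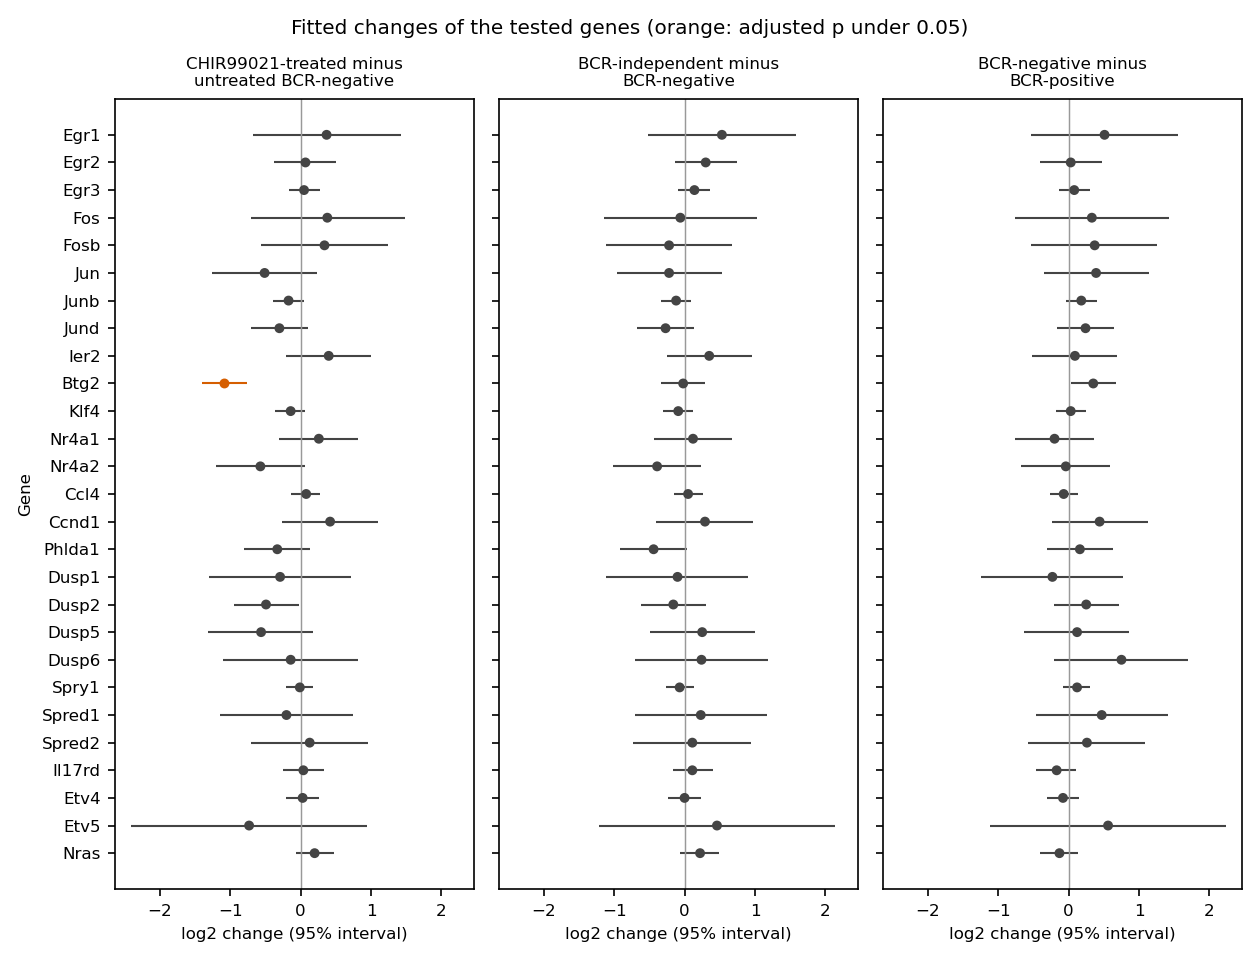
Fitted log2 changes of the 27 tested members, a gene per row, in 3 comparisons (treated minus untreated BCR-negative, BCR-independent minus BCR-negative, BCR-negative minus BCR-positive). Points are changes and bars their 95% intervals from limma, in log2 units; Btg2, in orange at -1.08 in the left panel, is the member past the threshold.

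Btg2 also fell in treated BCR-negative cells relative to BCR-independent clones. Treated cells had the 6.17, 6.88 and 6.33 given before, against 7.53, 7.67 and 7.34 in the clones, with no overlap. The change was -1.06 (SE 0.14, 95% interval -1.38 to -0.74, fold 0.481), with tumour differences of -1.36, -0.79 and -1.02 and an adjusted p of 0.0284 by limma. In this comparison 1 of 27 members was called, beside 0.162% of all genes in either direction and 0.131% lower. Unadjusted p-values under 0.05 were held by 2 members and 12.3% of all genes. The call ended without the block (adjusted p = 0.28), with the fit limited to these groups (0.234), and without tumours 2567, 2646 and 2676 (0.22, 0.258 and 0.151). Neither group carries the mark, so adding it to the fit could not alter the difference of -1.06 and does not test it (adjusted p = 0.0353). The other member below the threshold before adjustment was Dusp5, a nuclear phosphatase specific for ERK. It had 6.42, 6.51 and 5.67 in treated cells, against 7.25, 6.74 and 7.08 in the clones, with no overlap. Its difference of -0.82 (SE 0.33) had an adjusted p of 0.364, and was -0.53 without tumour 2676. Groups that do not overlap, with treated cells lower, were found for these 2 members and for 3.92% of all genes.

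Relative to BCR-positive cells, treated cells had less Btg2 signal in 3 of 3 tumours, short of the threshold. The treated values stand against 7.02, 7.31 and 7.24 in BCR-positive cells, again with no overlap. The difference was -0.73 (SE 0.14, 95% interval -1.05 to -0.41, fold 0.602), with an adjusted p of 0.0529 by limma that ranged from 0.0484 to 0.512 over the alternatives. Members called numbered 0 of 27, beside 0.802% of all genes, and 2 members against 15.6% of all genes passed before adjustment. Groups that do not overlap were found for Btg2 (treated cells lower, as for 4.51% of all genes) and for the dim Egr3 (treated cells higher, as for 6.99%). Ccnd1, which encodes cyclin D1 and answers ERK and beta-catenin signals, was the next by p. It had 8.36, 8.27 and 7.26 in treated cells, against 8.04, 7.80 and 5.48 in BCR-positive cells. The difference of 0.86 (SE 0.30, adjusted p = 0.212) was 0.32, 0.47 and 1.78 by tumour, and 0.39 without tumour 2676, whose BCR-positive array was low. The 3 comparisons of treated cells share the treated arrays, so they are not independent views of Btg2.

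Loss of the receptor in untreated cells changed 0 of the 27 members at the threshold, beside 0.00772% of all genes (1 gene). At an unadjusted p under 0.05, 1 member and 3.19% of all genes passed. That member was Btg2, with 7.54 ± 0.39 in BCR-negative and 7.19 ± 0.15 in BCR-positive cells, a difference of 0.35 (SE 0.14, adjusted p = 0.999). The arrays of the groups overlap for Btg2, as BCR-negative cells of tumour 2567 had 7.11. The fitted level was higher in BCR-negative cells for 20 members and lower for 7, against 49.7% of all genes higher. Junb, Dusp6 and Ccnd1 followed Btg2 by p: Junb differed by 0.18 (SE 0.10) and Ccnd1 by 0.44 (SE 0.30), with adjusted p-values of 0.999. For Ccnd1 the tumours gave -0.09, 0.07 and 1.34. The median difference was 0.161 for members and -0.000927 for all genes. Members varied more than other genes: the median SE was 0.249, against 0.117 over all genes. The members' median was -0.00941 without tumour 2646, 0.0794 without tumour 2676 and 0.146 without tumour 2567, so it depends on the tumours included.

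BCR-independent clones had 0 members called relative to BCR-negative cells (background 0.00772%, 1 gene), and 0 members against 5.99% of all genes passed before adjustment. Phlda1, a growth-factor-induced gene, had the smallest p among members, with 3.30 ± 0.30 in clones and 3.74 ± 0.39 in BCR-negative cells, a difference of -0.44 (SE 0.21, adjusted p = 0.814). Its mean lies near the array medians. Nras, which encodes a RAS protein, differed by 0.22 (SE 0.12, adjusted p = 0.827), and in opposite directions by tumour (0.30, 0.44 and -0.09). Egr2 differed by 0.30 (SE 0.20, adjusted p = 0.848), with 0.78 in tumour 2646. Jund, an AP-1 subunit, differed by -0.27 (SE 0.18, adjusted p = 0.856). Without 1 tumour these ran from 0.10 to 0.37 for Nras, 0.06 to 0.48 for Egr2 and -0.51 to -0.04 for Jund.

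Against BCR-positive cells the clones had 0 members called, beside 0.0849% of all genes, and 3 members against 9.61% of all genes passed before adjustment. These were Ccnd1 (0.73, SE 0.30, adjusted p = 0.488; 8.15, 7.94 and 7.41 in clones), Dusp6 (0.99, SE 0.42, adjusted p = 0.503) and Btg2 (0.32, adjusted p = 0.509). Ccnd1 was 0.13 without tumour 2676 and 0.42 with the mark in the fit, and Dusp6 was 0.41 without tumour 2646. Groups that do not overlap, with clones higher, were found for Btg2 and for the dim Egr3, 2 of 27 members, and for 4.79% of all genes. In 3 of 3 tumours the clones were higher for 6 members (22.2%), against 15.1% of all genes.

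Variance was divided between tumour and group much as in other genes, though the members varied more, with a median SD of 0.493 against 0.195. The median share of a gene's variance over the 12 arrays was 41.3% between tumours, 17.3% between groups and 36.2% left over for members, against 39.8%, 20.7% and 32.2% for all genes. Tumour held the largest share for 14 members, the remainder for 12, and group for 1, Btg2 (77%). Over all 12961 genes tumour held it for 6233, the remainder for 4445 and group for 2283. The SD of Etv5 over the arrays, 1.49, was at percentile 99.7 of all genes. Dusp6 was at 98.9, Egr1 at 98.8, Spred1 at 98, Ccnd1 at 97.6 and Dusp1 at 97.

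In tumour 2646 some ERK feedback genes and the early gene Egr1 stood high on all 3 arrays of cells without the receptor and low on the BCR-positive array. Dusp6, Etv5, Spred1, Spred2 and Egr1 were each at least 1 log2 unit above the tumour's own BCR-positive array on all of them. That is 5 of 27 members, against 0.409% of all genes (53). Members varied more than other genes (median SD 0.493 against 0.195), so a fixed cutoff of 1 log2 unit is easier for them to pass. Other feedback members did not follow: Dusp5 differed by -0.71, -0.48 and 0.40 in that tumour (treated, clone, untreated). Spry1, Etv4 and Il17rd, all dim, differed by -0.33 to 0.02. By the same measure 0 members stood above in tumour 2567 (background 0%), and 1, Ccnd1, in tumour 2676 (background 0.0231%). The pattern was chosen after its values were seen and rests on 1 tumour, so it has no test. Of 7 genes listed as T cell markers and 8 listed as myeloid markers, Cd2 and Fcgr3 met the same measure in tumour 2646. Cd2 was above by 1.83, 2.31 and 1.52 and Fcgr3 by 2.11, 1.39 and 1.23 (treated, clone, untreated). Both were also above in the clone of tumour 2567, by 1.82 and 1.99. The T cell gene Cd3e differed by -0.06, -0.05 and 0.03 in tumour 2646 and was below the medians on every array, as were Cd3d, Cd3g, Cd14 and Lyz2. The part of other cells, T cells included, in the pattern was not tested.

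**Figure D2:**
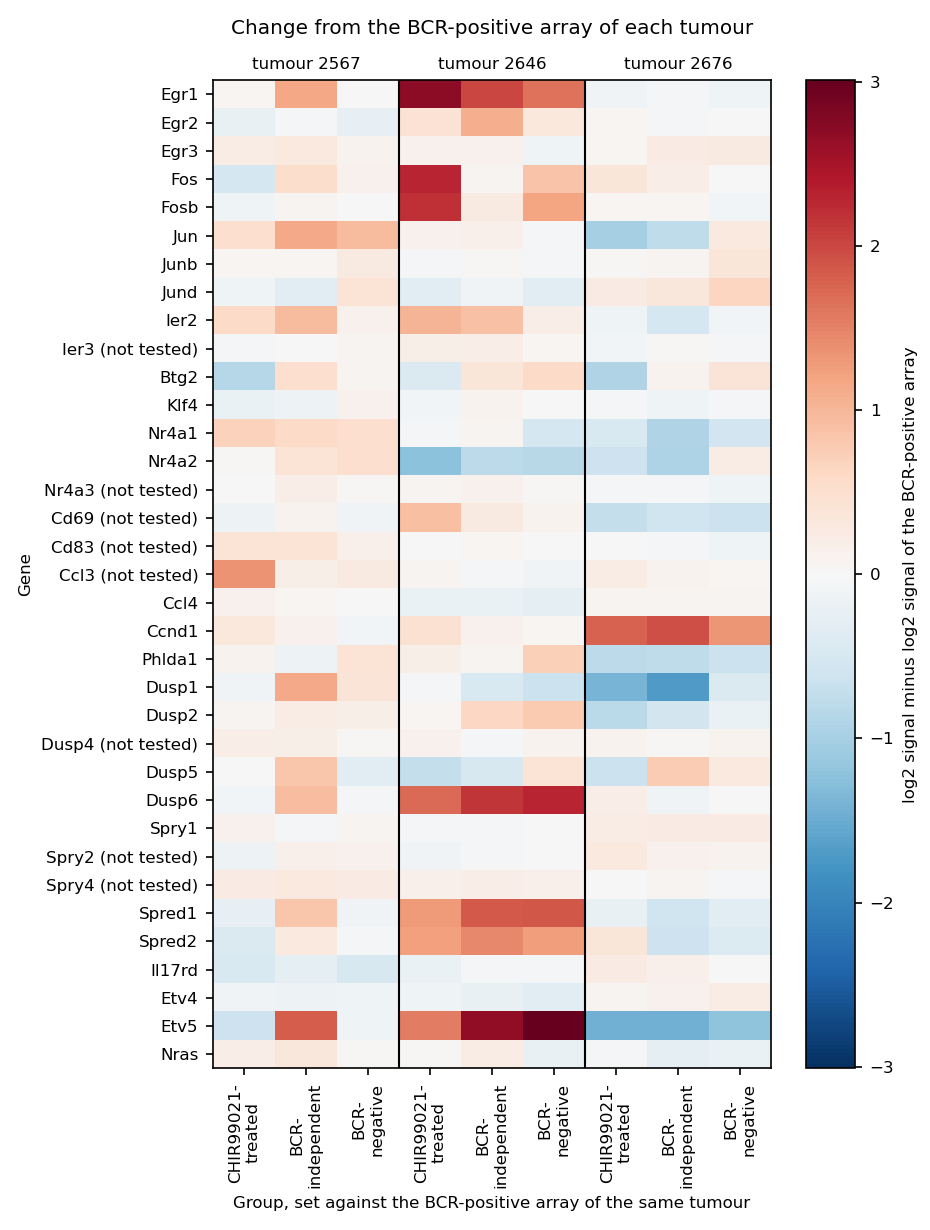
Colours give the log2 signal of each of the 35 genes (rows) minus that on the BCR-positive array of the same tumour, for treated BCR-negative, BCR-independent and untreated BCR-negative cells (columns) of tumours 2567, 2646 and 2676, with red for higher and blue for lower. The columns of tumour 2646 show Dusp6, Etv5, Spred1, Spred2 and Egr1 above by 1.23 to 3.01.

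Dusp6 encodes a cytoplasmic phosphatase that acts on ERK, and its transcript is a widely used readout of ERK activity. It had 3.08, 5.13 and 3.45 in treated cells, 4.08, 5.57 and 3.15 in clones, 3.11, 5.72 and 3.26 in untreated BCR-negative cells, and 3.16, 3.43 and 3.26 in BCR-positive cells (tumours 2567, 2646 and 2676). In tumour 2646 it was thus well above the array medians without the receptor and near them with it. Outside tumour 2646 it exceeded 4 on 1 array, the clone of tumour 2567. Between untreated BCR-negative and BCR-positive cells its difference was 0.75 (SE 0.42, 95% interval -0.21 to 1.70, adjusted p = 0.999), and -0.02 without tumour 2646.

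Etv5 encodes an ETS transcription factor downstream of ERK. It had 3.69, 6.62 and 4.20 in treated cells, 6.14, 7.73 and 4.20 in clones, 4.17, 8.09 and 4.43 in untreated BCR-negative cells, and 4.31, 5.07 and 5.63 in BCR-positive cells. The tumours ran in opposite directions: cells without the receptor stood above BCR-positive cells by 1.55, 2.66 and 3.01 in tumour 2646 (treated, clone, untreated), and below by -1.44, -1.44 and -1.20 in tumour 2676. Etv5 was the one member at least 1 log2 unit lower on all 3 such arrays of tumour 2676, where 0.201% of all genes were. Its second probe set gave 5.56, 6.83 and 6.96 in treated, clone and untreated BCR-negative cells of tumour 2646, against 3.99 in BCR-positive cells, so both probe sets had the order of that tumour. In tumour 2676 the second probe set gave 3.80, 3.78 and 3.99, against 4.47 in BCR-positive cells, which is lower by less than 1 log2 unit.

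Spred1 and Spred2 encode membrane proteins that keep RAF from being activated by RAS. Spred1 had 5.13, 6.91 and 5.68 in treated cells, 6.21, 7.50 and 5.30 in clones, 5.27, 7.50 and 5.55 in untreated BCR-negative cells, and 5.38, 5.64 and 5.90 in BCR-positive cells. Spred2 had 5.09, 6.69 and 5.84 in treated cells, 5.80, 6.89 and 4.85 in clones, 5.46, 6.72 and 5.05 in untreated BCR-negative cells, and 5.52, 5.46 and 5.48 in BCR-positive cells. The 3 highest arrays of each gene were those of tumour 2646 without the receptor. The second probe set of Spred2 gave 5.24, 5.47 and 4.94 on them (treated, clone, untreated), against 3.71 in BCR-positive cells.

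**Figure D3:**
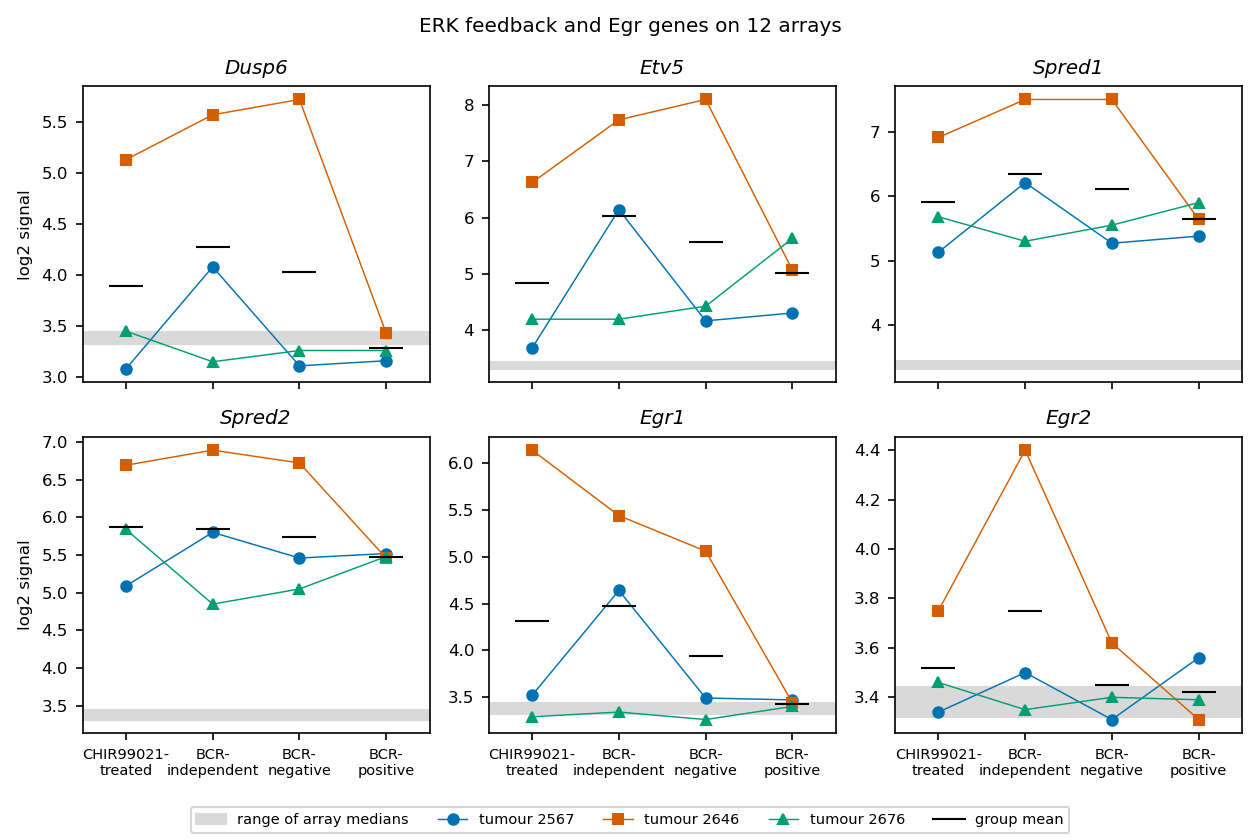
Log2 signals (vertical axes, each with its own range) of Dusp6, Etv5, Spred1, Spred2, Egr1 and Egr2 on the 12 arrays by group, with a point per tumour joined by lines, a bar at each group mean and a grey band over the range of array medians. The squares of tumour 2646 lie highest in the 3 groups without the receptor in all 6 panels.

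Egr1, a zinc finger transcription factor and a classic immediate-early gene, had 3.52, 6.14 and 3.29 in treated cells, 4.64, 5.44 and 3.34 in clones, 3.49, 5.06 and 3.26 in untreated BCR-negative cells, and 3.47, 3.44 and 3.40 in BCR-positive cells. Signal clearly above the medians was thus limited to tumour 2646 without the receptor and the clone of tumour 2567. Egr2, of the same family, had its highest value of 4.40 in the clone of tumour 2646 and was between 3.31 and 3.75 elsewhere. The 3 highest of 12 arrays were those of tumour 2646 without the receptor for 6 members (Egr1, Egr2, Dusp6, Etv5, Spred1 and Spred2), 22.2%, against 4.85% of all genes. For tumours 2567 and 2676 the like counts were 0 and 1, against 2.96% and 4.64%.

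In tumour 2646 the untreated BCR-negative array, which was high, and the BCR-positive array, which was low, carry the title mark, and the treated and clone arrays, which were high, do not. The part of the mark in the pattern was not tested. Of the cascade upstream, with 18 genes tested, Rasgrp1, the RAS exchange factor of lymphocytes, was low without the receptor in tumour 2646. It had 3.54, 3.82 and 3.83 in treated, clone and untreated BCR-negative cells, against 5.43 in BCR-positive cells. In that tumour 0.332% of all genes were at least 1 log2 unit lower on all of these arrays. The fitted difference of Rasgrp1 between untreated BCR-negative and BCR-positive cells was -0.73 (SE 0.30, adjusted p = 0.999), and -0.30 without tumour 2646. Of the other early genes, with 27 tested, Klf6 stood above by 1.75, 1.22 and 1.01 in that tumour (treated, clone, untreated) and Rgs2, which restrains G protein signals, by 1.34, 1.00 and 1.29. Both were picked after their values were seen, and 0.409% of all genes were at least 1 log2 unit higher on all of these arrays. Others of that list stood below, such as Plk2 by -1.68, -0.19 and -0.44 and Sik1 by -0.95, -0.91 and -0.68.

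The clone of tumour 2567 stood above its BCR-positive array for some of the same genes: Etv5 by 1.82, Egr1 by 1.17, Dusp6 by 0.92 and Spred1 by 0.83, but Spred2 by 0.29. Dusp1, a nuclear phosphatase that answers stress as well as growth factors, was 1.15 above there and Jun 1.13 above. Over the arrays Dusp1 had 4.79, 4.96 and 5.38 in treated cells, 6.04, 4.56 and 5.09 in clones, 5.26, 4.37 and 6.36 in untreated BCR-negative cells, and 4.88, 5.01 and 6.79 in BCR-positive cells. In tumour 2676 it was below its BCR-positive array, by -1.41, -1.70 and -0.43 in treated, clone and untreated BCR-negative cells. Treated and untreated BCR-negative cells of tumour 2567 had Etv5, Dusp6, Egr1 and Spred1 at or below the BCR-positive level, apart from Egr1 at 3.52 and 3.49 against 3.47.

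The AP-1 factors and Ier2 did not meet the measure of the tumour 2646 pattern, though some had their highest value on an array of it. Fos had 4.10, 6.18 and 4.13 in treated cells, 5.15, 3.97 and 3.97 in clones, 4.76, 4.74 and 3.77 in untreated BCR-negative cells, and 4.63, 3.88 and 3.76 in BCR-positive cells. Fosb had 5.07, 6.50 and 4.35 in treated cells, and was between 4.20 and 5.48 on the other arrays. Ier2, an early gene of little known biochemical role, had 4.74, 5.76 and 4.65 in treated cells, 5.13, 5.62 and 4.26 in clones, 4.31, 4.93 and 4.70 in untreated BCR-negative cells, and 4.17, 4.73 and 4.78 in BCR-positive cells. Fos, Fosb, Ier2 and Egr1 were all highest on the treated array of tumour 2646, which held the maximum of 4 members (8.43% of all genes had theirs there).

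Jun had 5.81, 6.79 and 6.53 in treated cells, 6.43, 6.83 and 6.77 in clones, 6.25, 6.60 and 7.82 in untreated BCR-negative cells, and 5.30, 6.66 and 7.53 in BCR-positive cells, so the groups overlap. The untreated BCR-negative array of tumour 2676 was the highest for Jun, Jund, Nr4a2, Egr3 and Etv4, 5 members (7.01% of all genes). Nr4a1, an orphan nuclear receptor used as a reporter of antigen receptor signals in lymphocytes, had 5.98, 5.69 and 6.14 in treated cells, 5.86, 5.84 and 5.70 in clones, 5.79, 5.22 and 6.03 in untreated BCR-negative cells, and 5.29, 5.75 and 6.60 in BCR-positive cells. Its groups overlap throughout.

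**Figure D4:**
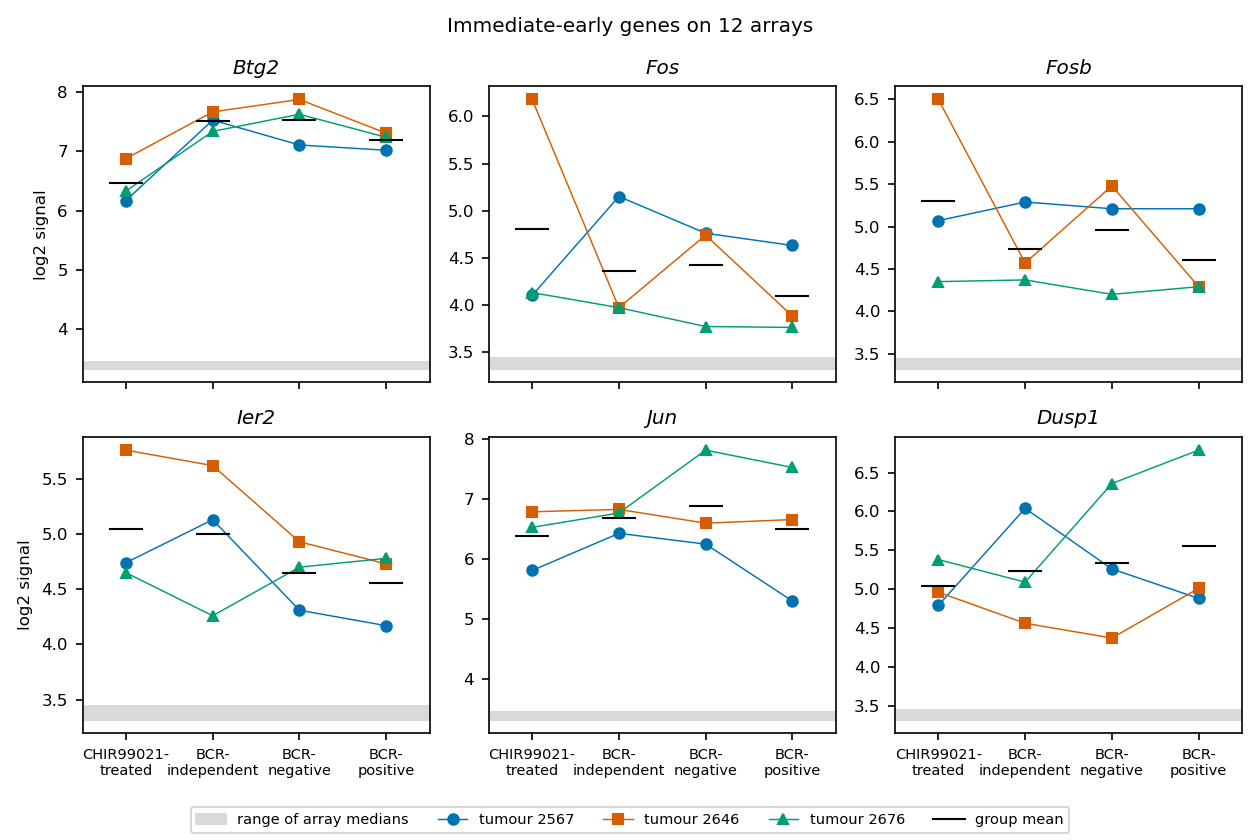
Log2 signals (vertical axes, each with its own range) of Btg2, Fos, Fosb, Ier2, Jun and Dusp1 on the 12 arrays by group, drawn as for the feedback genes. Btg2 is lower in treated cells than on any other array (6.88 or less, against 7.02 or more), and Fos, Fosb and Ier2 are highest on the treated array of tumour 2646.

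Among the genes not tested, Cd69, an early activation antigen, stood above its other values, 2.70 to 3.05, on 2 arrays: treated cells of tumour 2646 (3.67) and BCR-positive cells of tumour 2676 (3.47). Ccl3, a chemokine of activated B cells, had 3.97 in treated cells of tumour 2567, and between 2.57 and 2.88 on the other 11 arrays. The chemokine Ccl4, the Sprouty gene Spry1 and the ETS gene Etv4 hardly varied, with an SD at percentiles 3.33, 10.8 and 10.7 of all genes. Sprouty genes Spry2 and Spry4 stayed at or below 3.22 and 3.04.

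Other genes of the pathway were read from lists that hold none of the members. Of 30 other immediate-early and delayed-early genes 27 were tested, of 20 other feedback genes and MAP kinase phosphatases 17, and of 27 genes of the RAS-ERK cascade 18. Between treated and untreated BCR-negative cells, 0 rose and 1 fell in the early-gene list, 1 rose and 0 fell in the feedback list, and 0 changed in the cascade. Of all genes, 1.06% were called higher and 0.849% lower. Before adjustment, 8 early, 4 feedback and 2 cascade genes had p under 0.05 by limma, against 16.6% of all genes. The median changes of the 3 lists were -0.0213, 0.118 and 0.0578, against 0.0256 over all genes. The cascade had 0 genes called in all 6 comparisons by limma, with 0 to 5 of 18 past an unadjusted p of 0.05, against 3.19% to 16.6% of all genes. The 5 were in clones against BCR-positive cells, where 9.61% of all genes passed. There 13 cascade genes were lower and 5 higher, with a median of -0.152, against 0.0221 over all genes. Outside treated against untreated BCR-negative cells, the early and feedback lists had 0 calls, except Dusp7 in treated against BCR-positive cells.

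Nfkbia, which encodes an inhibitor of NF-kB and is itself an NF-kB target, fell in treated cells. It had 5.74, 6.07 and 5.43 in treated cells, against 6.29, 7.19 and 6.82 in untreated BCR-negative cells. The change was -1.02 (SE 0.19, adjusted p = 0.0372 by limma), and -0.57 when the mark of the titles was added to the fit (adjusted p = 0.201). Dusp7, a cytoplasmic ERK phosphatase, rose in treated cells, with 7.45, 7.72 and 7.81, against 7.09, 7.34 and 7.21 in untreated BCR-negative cells and 7.12, 7.17 and 7.00 in BCR-positive cells. The groups do not overlap in either comparison, as for 5.9% of all genes with treated cells higher against BCR-negative cells and 6.99% against BCR-positive cells. The changes were 0.45 (SE 0.09, adjusted p = 0.0499) and 0.56 (SE 0.09, adjusted p = 0.0376). Leaving out any tumour ended the calls on Nfkbia and Dusp7, with adjusted p-values from 0.0585 to 0.425. Of 11 alternatives, 5 left Nfkbia called, 1 left Dusp7 called against BCR-negative cells and 5 against BCR-positive cells. Atf3, a stress-induced transcription factor, had 4.58, 5.86 and 4.14 in treated cells, against 3.13, 4.00 and 4.07 in untreated BCR-negative cells (change 1.13, SE 0.33, adjusted p = 0.121). Ier5 had a change of 0.62 (SE 0.14, adjusted p = 0.0672), and Elk4, a partner of serum response factor, one of -0.73 (SE 0.20, adjusted p = 0.106) that was -0.36 with the mark in the fit.

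Early genes also answer handling and stress, so heat shock genes and markers of other cells were read on the same arrays. Of 10 heat shock genes 8 were tested. Between treated and untreated BCR-negative cells 1 rose and 0 fell, beside 1.06% of all genes called higher and 0.849% called lower. The fitted level was higher for 7 and lower for 1, and the median change was 0.309, against 0.0256 over all genes. Before adjustment, 4 of the 8 had p under 0.05 by limma, against 16.6% of all genes. Hspe1, a mitochondrial chaperonin, averaged 10.20 ± 0.11 in treated and 9.84 ± 0.18 in untreated cells (change 0.36, SE 0.07, adjusted p = 0.0491), and 4 of 11 alternatives left it called. The linear signals of the 8 genes summed to between 7270 and 8140 in treated cells, 6710 and 7120 in clones, 6360 and 6930 in BCR-negative cells, and 6630 and 6870 in BCR-positive cells. The treated array of tumour 2646, highest for Fos, Fosb and Ier2, was also the highest of 12 for Atf3 (5.86) and for 3 of the 8 heat shock genes, Bag3 (5.42), Hsp90aa1 (11.33) and Hspa8 (11.31), while Hsph1, Hspd1 and Hspe1 were highest in treated cells of tumour 2567. The part of these genes in the results was not tested.

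Of 7 B cell markers with a probe set, 6 were above the median on all arrays, with Cd79a at a mean of 10.16, while Ms4a1 was near or below it (mean 2.73). The T cell genes Cd3d, Cd3e, Cd3g and Cd4 and the myeloid genes Cd14, Adgre1, Lyz2, S100a8 and S100a9 were below the medians on every array. Of the other myeloid genes, Itgam was above them throughout (4.08 to 5.97), Fcgr3 reached 5.45 and Csf1r 4.13. The sums of 7 T cell genes ran from 91.5 to 230 in treated cells, 118 to 329 in clones, 98.6 to 193 in BCR-negative cells and 97.7 to 134 in BCR-positive cells. Among them Cd2 was above the medians on every array, at 5.07 to 8.10 log2 units, so the sums move mainly with it. Cd8a (3.44 to 3.83) and Cd247 (3.45 to 3.80) were also above the medians on every array, but by less than 0.5 log2 units. The sums of 8 myeloid genes ran from 77 to 118, 96.2 to 113, 73.6 to 119 and 72.9 to 115 in the same order. Between treated and untreated BCR-negative cells 0 of the 6 B cell markers tested were called by limma, 3 passed before adjustment (16.6% of all genes did), and their median difference was -0.394. Their linear signals summed to between 2420 and 3800 in treated cells, 3140 and 5000 in clones, 2780 and 4890 in BCR-negative cells, and 3150 and 4270 in BCR-positive cells. The part of these markers in the change of Btg2 was not tested. The variable segment gene of the B1-8 heavy chain, the gene that Cre deletes, differed by -3.18 log2 units between BCR-negative and BCR-positive cells (adjusted p = 0.0241 by limma). Of 11 alternatives 7 left it called, and the difference stayed between -3.54 and -2.97. The call ended without the block (adjusted p = 0.0587 by limma) and without tumours 2567, 2646 and 2676 (0.398, 0.194 and 0.999).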

How the data were processed

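RNA of sorted B lymphoma cells was measured on 12 Affymetrix mouse gene arrays. The deposited values are log2 signals per probe set, which per the submitters' processing notes came from RMA in Affymetrix Power Tools; the sources used here give no versions. RMA corrects background, normalizes arrays and summarises probes, which compresses differences of dim probe sets. Precision is limited by the number of arrays.

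The table holds 35556 probe sets: 21218 carried 1 gene symbol by the annotation of the platform, 1881 had several and 12457 had none; 21185 were matched by gene ID to RefSeq (GRCm38.p6). Probe sets above the 40th percentile of the array on 3 or more arrays were kept, and the brightest stood for its gene (12961 genes). In R 4.3.3, limma 3.58.1 (lmFit, eBayes) fitted group and tumour over all 12 arrays, with 6 residual and 3.41 prior degrees of freedom. Genes with a Benjamini-Hochberg adjusted p below 0.05 over all genes counted as called, in 6 comparisons; those with a group in common share arrays. The fit was tested on simulated data. Variance shares come from sums of squares for tumour, group and residual.

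Each tumour gave an array in every group, so the tumour number pairs them. Correlations of residuals ran from 0.284 to 0.792 within tumours, and from -0.574 to 0.165 across tumours. The members, the pathway lists and the tests were chosen with earlier results of these data known. The members named with full statistics are those called and the 4 with the smallest p in 3 comparisons (treated or BCR-independent against BCR-negative, BCR-negative against BCR-positive) or the 2 smallest in the others. Up to 3 genes of each other list are named by p. Those of the tumour 2646 pattern and the genes described by single arrays were chosen after their values were seen. Alternatives were leaving out the block, a filter at the 60th percentile or none, trend with robust prior, probe sets of 1 gene averaged, quantile normalization, only the groups compared, the title mark as a term, and each tumour left out.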

Additional observations from a re-analysis of the deposited data

How the results depend on the processing

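Under the 11 alternatives, the 2 calls on Btg2 and the numbers of genes called moved with the tumour block, the groups in the fit, the title mark and the number of tumours. Without the replicate block the numbers called in treated against BCR-negative, treated against BCR-independent, treated against BCR-positive, BCR-independent against BCR-negative, BCR-independent against BCR-positive and BCR-negative against BCR-positive cells were 12, 5, 7, 0, 4 and 0, in place of 248, 21, 104, 1, 11 and 1. With only the groups compared in the fit they were 109, 1, 0, 0, 1 and 2. With the mark as a term they were 32, 33, 8 and 0 in the first 4 of these and 2 in the last. Quantile normalization gave 33 in treated against BCR-independent cells, where the median difference of all genes was 0.0242, in place of 0.00999. Without a tumour, which leaves fewer arrays, the counts ran from 1 to 17, 0 to 12, 4 to 19, 0 to 3, 1 to 4 and 0 to 0. Members called became 0 without the block, with the mark and without any tumour (0 to 0) in treated against BCR-negative cells. They became 0 without the block, with only the groups compared and without any tumour (0 to 0) in treated against BCR-independent cells. They became 1, Btg2, with the stricter filter and with the trend in treated against BCR-positive cells (adjusted p = 0.0484 and 0.0493, limma). Changes of Btg2 stayed between -1.15 and -0.92, between -1.19 and -0.90, and between -0.88 and -0.57 in these 3 comparisons.

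The members' median in BCR-negative against BCR-positive cells was 0.0886 with no filter, 0.257 with the stricter filter, and from -0.00941 to 0.146 without a tumour, in place of 0.161. In treated against BCR-negative cells it was -0.155 with the stricter filter; in treated against BCR-positive cells it was 0.0635 with the stricter filter, 0.13 with the mark and from -0.0438 to 0.118 without a tumour; and in treated against BCR-independent cells it ran from -0.152 to -0.0163 without a tumour. Among the named genes 2 turned direction, both uncalled in BCR-negative against BCR-positive cells: Dusp6 ran from -0.02 (without tumour 2646) to 1.14 (without 2567), and Ccnd1 from -0.01 (without 2676) to 0.71 (without 2567). Phlda1, Egr2 and Dusp9 were not bright enough for the stricter filter. The causes of these shifts were not tested. Signals near the array medians limit what can be read for the 8 tested genes with means there and the 8 not tested.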
